A study of Mus musculus with 57 samples.

Results

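Pericyte and mesangial genes were followed across a mouse kidney study of ischemia-reperfusion injury (IRI). The 10 genes are Pdgfrb, Pdgfra, Des, Acta2, Tagln, Itga8, Rgs5, Cspg4, Penk and Pi15, chosen by name out of 19938 genes that had a probe set carrying exactly 1 symbol. Each of the 10 had 1 such probe set and all 10 passed the filter on low values. The 10 genes and the lists of related genes were chosen with earlier results of these data known. Their counts beside the share of all genes are therefore a description and no independent support.

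The study isolated translating RNA with TRAP, in which an antibody against GFP pulls down ribosomes that carry an eGFP-tagged L10a protein. It used Affymetrix Mouse Gene 1.0 ST arrays, 57 in 19 groups, of which 51 held TRAP RNA and 6 held whole-kidney total RNA. IRI was 28 min of clamping of both renal pedicles, studied after 24 h of reperfusion and, in the nephron line alone, also after 4 h. All mice were males labelled as mixed C57BL/6 and 129, and all Cre lines carried the Rosa26-CAGGS-eGFPL10a allele.

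The interstitial line was driven by foxd1-CRE at 6 weeks of age, with 3 arrays each for IRI, sham surgery and no surgery. The endothelial line (cdh5-CRE, 6 weeks) had the same 3 groups of 3 arrays. In the myeloid line (lyz2-CRE), which the labels call macrophage/monocyte, the IRI mice were 9.5 weeks old and the sham and no surgery mice 7 weeks old, again with 3 arrays each. The nephron line (six2-CRE) had 3 arrays each for IRI at 4 h, IRI at 24 h and sham at 8 weeks and for no surgery at 6 weeks. Its 4 h arrays had to be set against the 24 h sham, because no 4 h sham is among the samples. The L10a background came from Cre-negative L10a mice at 8 weeks, with 4 IRI and 2 sham arrays, and the labels call these mice homozygous in one field and heterozygous in another and describe the captured cells as podocytes and some collecting duct cells. The wild-type background came from untagged kidneys at 8 weeks, with 4 IRI and 2 sham arrays, called C57BL/6 in the titles although the strain field says mixed. Total RNA came from heterozygous L10a littermates without Cre at 8 weeks, 3 IRI and 3 sham. Cre lines are lineage labels: foxd1-CRE marks the descendants of interstitial progenitors, mesangial cells and pericytes among them, and Foxd1 is itself active in podocytes. Age differs between some groups and cannot be told apart from them. The labels call the arrays biological replicates and say nothing more of their source.

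Pericytes wrap capillaries, and mesangial cells hold the capillary loops of the glomerulus together. Both depend on PDGF-B made by endothelial cells, which acts on the receptor PDGFRB. After kidney injury, pericytes and fibroblasts are known to take on smooth muscle genes such as Acta2 as they turn into matrix-producing myofibroblasts.

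Values are given as log2 array intensities, so a difference of 1 is a doubling, and levels are compared between groups for the same gene, never between genes. Median intensity lay between 105.8 and 128.4 on the TRAP arrays and between 43.9 and 53.3 on the total RNA arrays, so total RNA is compared only within itself. One total RNA array, IRI replicate 3, stood apart, with a mean correlation of 0.911 with its own group against 0.947 and 0.951 for the others. No array pair was identical. Differences were tested with limma over all genes, and a gene was called at an adjusted p under 0.05. In a pull-down from bulk tissue, fewer cells of a type and less RNA per cell cannot be told apart.

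**Figure D1:**
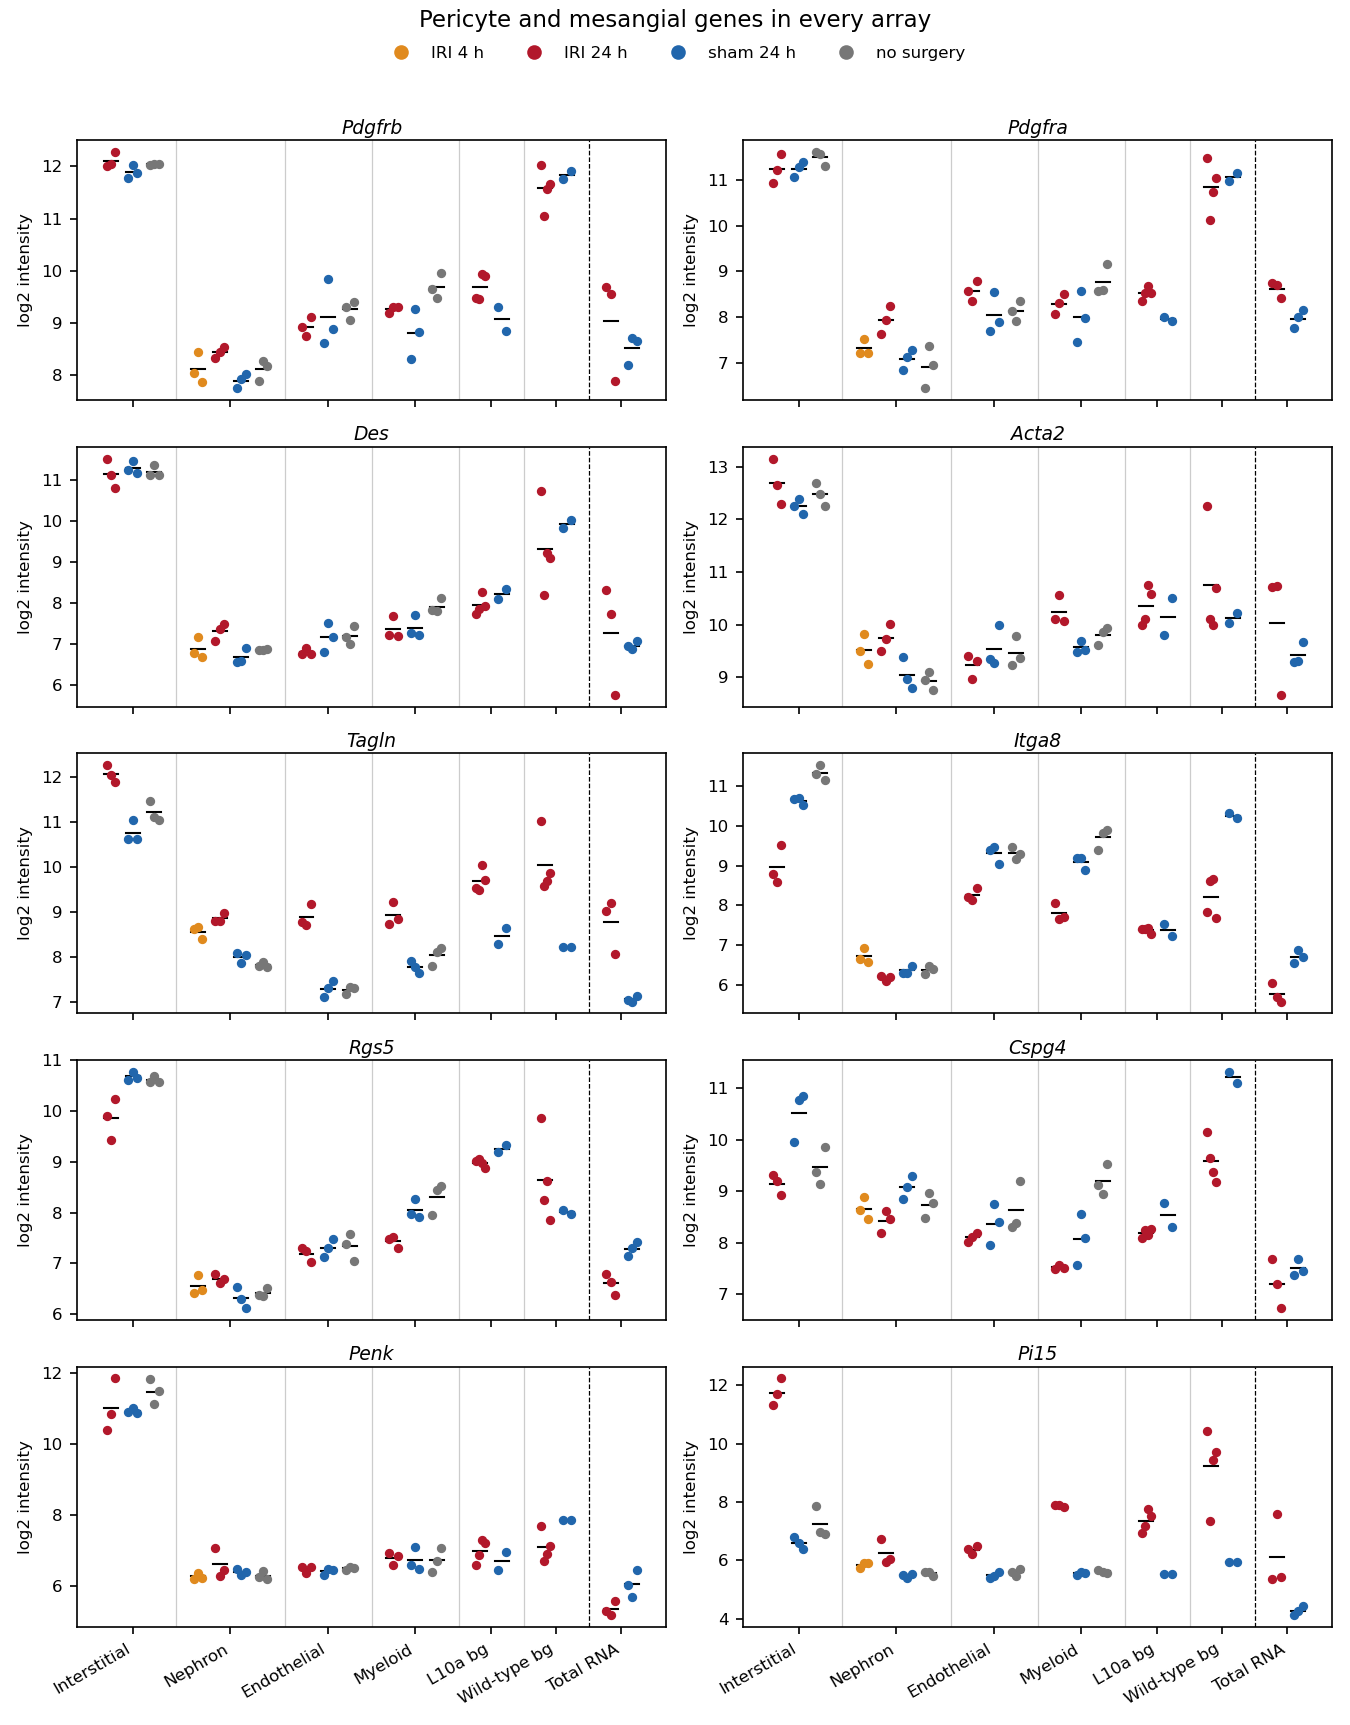
Log2 array intensity of each gene (vertical axis, own range per panel) on every array, by line or background (horizontal axis), with points for arrays, bars for group means, and colours for IRI at 4 h, IRI at 24 h, sham at 24 h and no surgery. Total RNA, right of the dashed line, is on its own scale. The 3 interstitial groups lie above every array of the other 3 Cre lines for Pdgfrb, Pdgfra, Des, Acta2, Tagln, Rgs5 and Penk, and for Pi15 the interstitial IRI arrays (11.31 to 12.23) lie above all others.

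Without surgery, all 10 genes were higher in the interstitial line than in the mean of the nephron, endothelial and myeloid lines, where 13.0% of all genes tested were higher. The median difference of the 10 was 3.17 on the log2 scale, against -0.05 over all genes tested. Against the nephron line 10 of 10 were higher, against 13.9% of all genes. Against the endothelial line 10 of 10 were higher, against 17.9% of all genes. Against the myeloid line 9 were, against 18.2% of all genes; Cspg4, at 0.27 ± 0.26, was not called (adjusted p = 0.486, limma). The single-line Cspg4 calls each rested on single arrays, with adjusted p between 0.0551 and 0.156 against the nephron line without interstitial replicate 3 or nephron replicate 1 or 3, and between 0.0544 and 0.079 against the endothelial line without interstitial replicate 3 or endothelial replicate 1 or 2.

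Both PDGF receptors were among them. Pdgfrb (probe set 10456046) encodes the beta receptor for PDGF-B and is a general marker of mural cells. It read 12.03, 12.04 and 12.05 in the interstitial line without surgery, against 7.89, 8.28 and 8.18 in the nephron line, 9.31, 9.07 and 9.40 in the endothelial line and 9.65, 9.48 and 9.96 in the myeloid line. No interstitial array overlapped any of the others, and the difference from their mean was 3.02 ± 0.24 (SE, n = 3 arrays per group, adjusted p = 1.09e-12, limma). Pdgfra (probe set 10522503), the alpha receptor carried by fibroblasts, read 11.60, 11.56 and 11.30 in the interstitial line and differed by 3.54 ± 0.19 (adjusted p = 1.11e-16, limma). Over the 17 TRAP groups both receptors had nearly the same profile (Pearson r = 0.99, Spearman rho = 0.95, as a description over group means that share arrays and normalization).

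The contractile and cytoskeletal genes followed. Des (probe set 10347583) encodes the muscle intermediate filament desmin and differed by 3.88 ± 0.26 (adjusted p = 2.15e-14, limma). Acta2 (probe set 10467124), smooth muscle alpha actin, read 12.70, 12.49 and 12.26 in the interstitial line without surgery and differed by 3.08 ± 0.26 (adjusted p = 4.95e-12, limma). Tagln (probe set 10593123) encodes the actin-binding protein transgelin and differed by 3.51 ± 0.15 (adjusted p = 1.1e-19, limma).

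Among the surface and signalling genes, Itga8 (probe set 10480090) encodes the integrin alpha 8 of mesangial and smooth muscle cells and differed by 2.86 ± 0.14 (adjusted p = 4.08e-18, limma). It read 11.30, 11.52 and 11.15 in the interstitial line, against 6.27, 6.47 and 6.40 in the nephron line, 9.48, 9.17 and 9.28 in the endothelial line and 9.39, 9.82 and 9.90 in the myeloid line, with no overlap. Rgs5 (probe set 10351455), a regulator of G protein signalling typical of pericytes, differed by 3.25 ± 0.13 (adjusted p = 2.54e-20, limma). Cspg4 (probe set 10585588) encodes the NG2 proteoglycan of pericytes. It read 9.38, 9.14 and 9.86 in the interstitial line, against 8.49, 8.96 and 8.78 in the nephron line, 8.30, 8.38 and 9.20 in the endothelial line and 9.11, 8.94 and 9.53 in the myeloid line. The interstitial arrays overlapped the endothelial and the myeloid ones, not the nephron ones. Its difference from the mean of the other lines was 0.61 ± 0.21 (adjusted p = 0.0244, limma), and it was not called without interstitial replicate 1 (0.65, adjusted p = 0.0518) or replicate 3 (0.40, adjusted p = 0.222).

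Both secreted products were also higher in the interstitial line. Penk (probe set 10511363), the precursor of enkephalin opioid peptides, read 11.83, 11.12 and 11.49, against 6.20 to 6.41 in the nephron line, 6.44 to 6.52 in the endothelial line and 6.40 to 7.06 in the myeloid line. That gap was 4.98 ± 0.19 (adjusted p = 1.06e-20, limma). Many of the low readings lay under the median intensity of their arrays and no detection call was used, so the size of the gap may be understated. Pi15 (probe set 10344981), a secreted protein known as a trypsin inhibitor, read 7.88, 6.97 and 6.89 without surgery, a difference of 1.66 ± 0.26 (adjusted p = 2.76e-06, limma).

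Of the related lists, 19 of 20 tested pericyte and mural genes, 17 of 17 contractile genes and 18 of 19 interstitial fibroblast genes were higher in the interstitial line than in the mean of the other lines without surgery, beside 13.0% of all genes. Adipocyte genes were too, 7 of 7, and their summed intensity lay between 13.90 and 14.33 in the interstitial line, against 9.43 to 9.76 in the nephron line, 9.33 to 9.71 in the endothelial line and 9.57 to 10.02 in the myeloid line (log2). Their part in the line differences was not tested. Of 9 podocyte genes tested, 4 were higher and 1 lower.

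**Figure D2:**
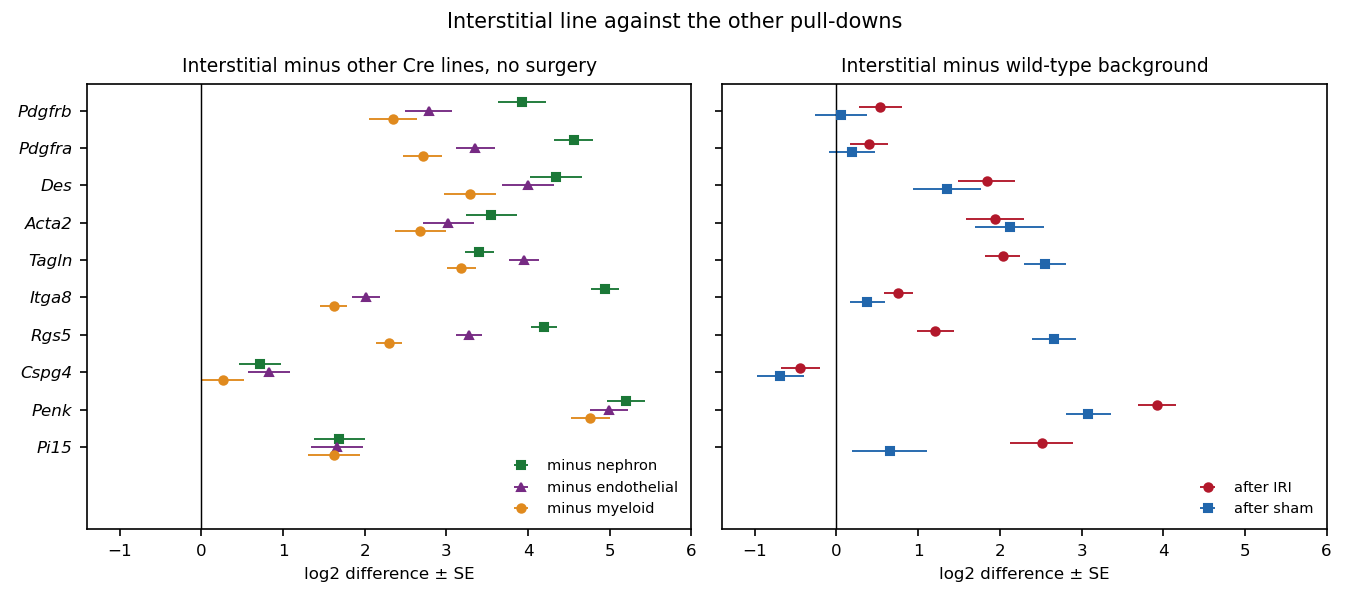
Log2 difference (horizontal axis, with SE) for each gene (vertical axis), interstitial line minus each other Cre line without surgery on the left, and interstitial line minus the untagged wild-type background on the right. Penk has the largest differences on the left (5.20, 4.99 and 4.76), and in the right panel Pdgfrb lies at 0.53 after IRI and 0.06 after sham.

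The untagged wild-type pull-down holds message recovered without a tagged ribosome. After IRI 7 of the 10 genes were higher in the interstitial line than in that background, where 17.8% of all genes were. After sham surgery 5 were higher and 1 was lower, beside 22.2% and 19.8% of all genes (42.0% in either direction). Both receptors went uncalled. Pdgfrb after sham read 11.78, 12.03 and 11.87 in the interstitial line, against 11.76 and 11.91 in the untagged kidneys, and Pdgfra read 11.06, 11.28 and 11.38, against 10.96 and 11.13. These arrays overlapped for both genes. The differences were 0.06 ± 0.32 (adjusted p = 0.907) and 0.19 ± 0.28 (adjusted p = 0.618, limma). After IRI, neither was called (0.53 ± 0.26, adjusted p = 0.12, for Pdgfrb and 0.40 ± 0.23, adjusted p = 0.204, for Pdgfra, limma), but both were without wild-type IRI replicate 1 (0.69, adjusted p = 0.0496, and 0.61, adjusted p = 0.0386).

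Cspg4 went the other way: 9.96, 10.76 and 10.84 in the interstitial line after sham, against 11.32 and 11.10 in the untagged kidneys. All 3 interstitial arrays were lower, and the difference was -0.69 ± 0.28 (adjusted p = 0.0483, limma), and the call was lost without interstitial sham replicate 1 (-0.41, adjusted p = 0.311) or either wild-type sham array (adjusted p = 0.239 and 0.0942). Itga8 (0.37 ± 0.21, adjusted p = 0.163) and Pi15 (0.65 ± 0.46, adjusted p = 0.27) were not called after sham, though their arrays did not overlap.

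The remaining 5 genes stood above the untagged background in both conditions. Penk was higher by 3.92 ± 0.23 after IRI and by 3.08 ± 0.28 after sham (adjusted p = 6.3e-17 and 2.21e-12, limma). Tagln was higher by 2.03 after IRI and 2.55 after sham, Acta2 by 1.94 and 2.12, Des by 1.84 and 1.36, and Rgs5 by 1.21 and 2.66. Des after sham was not called without wild-type sham replicate 1 (1.26, adjusted p = 0.0647). After IRI, Pi15 was also higher by 2.51 ± 0.39 (adjusted p = 1.2e-06) and Itga8 by 0.76 ± 0.18 (adjusted p = 0.000744, limma), although the Itga8 and Rgs5 arrays overlapped. With these groups compared alone neither Itga8 (adjusted p = 0.125) nor Rgs5 (adjusted p = 0.0898, limma) was called.

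At 24 h after IRI, 5 of the 10 genes were called in the interstitial line against sham, beside 39.4% of all genes tested. Pi15 and Tagln rose, beside 19.3% of all genes, and Itga8, Cspg4 and Rgs5 fell, beside 20.0%. The share of the 10 that was called is close to that of all genes, and their median change was 0.04, against 0.05 over all genes. Leaving out any 1 interstitial array kept the count at 5. The other 5, which include both PDGF receptors, were not called.

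Pi15 had the largest change of the 10. It read 11.31, 11.70 and 12.23 after IRI, against 6.79, 6.61 and 6.38 after sham. Every IRI array lay above every sham array, and the difference was 5.16 ± 0.31 (adjusted p = 2.56e-14, limma). The sham readings were as low as those of Penk outside the interstitial line, with the same limit on its size.

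Tagln read 12.27, 12.04 and 11.90 after IRI, against 10.63, 11.04 and 10.62 after sham. The groups did not overlap, and Tagln was higher by 1.31 ± 0.18 (adjusted p = 4.92e-07, limma). Acta2, often used together with Tagln as a marker of contractile cells, read 13.16, 12.65 and 12.30 after IRI, against 12.25, 12.39 and 12.10 after sham. Its ranges overlapped and it was not called (0.46 ± 0.31, adjusted p = 0.26, limma).

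Serum response factor binds the CArG box of smooth muscle genes, which is why the Acta2 promoter is shown. It is the RefSeq window in GRCm38.p6 at chr19:34255324-34255623 on the minus strand, from 250 bases before the gene start to 50 after it. Capitals mark 2 CArG-like elements, 84 and 34 bases before the gene start, each with 1 G or C inside its core.
Acta2: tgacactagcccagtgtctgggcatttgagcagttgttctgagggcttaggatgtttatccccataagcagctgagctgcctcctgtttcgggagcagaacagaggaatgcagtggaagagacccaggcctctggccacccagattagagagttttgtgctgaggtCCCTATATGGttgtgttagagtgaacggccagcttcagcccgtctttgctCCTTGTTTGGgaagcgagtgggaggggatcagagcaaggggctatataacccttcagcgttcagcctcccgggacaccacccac
CArG-like elements occurred in 8.5% of 32851 mouse promoter windows and a strict CArG box in 1.63%, searched on both strands. No strict CArG box was found in the 6 windows at hand, those of Pdgfra, Des, Acta2, Itga8, Rgs5 and Cspg4, and Acta2 was the 1 with CArG-like elements. Tagln and Pi15, which rose, had no window at hand, so their promoters were not searched. Of 4 serum response factor genes tested, Srf itself rose by 0.87 (adjusted p = 1.04e-06) in the interstitial line after IRI and its coactivator Myocd by 0.33 (adjusted p = 0.0135, limma).

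Itga8 read 8.78, 8.58 and 9.50 after IRI, against 10.67, 10.69 and 10.51 after sham. All 3 IRI arrays were lower, and the difference was -1.67 ± 0.17 (adjusted p = 1.24e-09, limma). After sham surgery Itga8 was also lower than without surgery, where it read 11.30, 11.52 and 11.15. That difference was -0.70 ± 0.17 (adjusted p = 0.00622, limma), and these groups did not overlap either. In the same comparison 4 of 7 adipocyte genes were lower, and their sums lay between 11.24 and 13.71 after sham, against 13.90 to 14.33 without surgery (log2); their part in the sham changes of Itga8 and Cspg4 was not tested.

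Cspg4 read 9.30, 9.19 and 8.92 after IRI, against 9.96, 10.76 and 10.84 after sham. The groups did not overlap, and the difference was -1.38 ± 0.26 (adjusted p = 4.89e-05, limma). Sham arrays were, however, higher than those without surgery (9.38, 9.14 and 9.86) by 1.06 ± 0.26 (adjusted p = 0.00647, limma), and against no surgery the IRI difference was -0.32 and not called (adjusted p = 0.35). Comparing with no surgery was added after seeing the data. Sham changed 2 of the 10 genes in the interstitial line, beside 10.3% of all genes, and the Cspg4 call was lost without sham replicate 3 (adjusted p = 0.0671) or no surgery replicate 2 (adjusted p = 0.0524).

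Rgs5 read 9.90, 9.43 and 10.24 after IRI, against 10.61, 10.77 and 10.66 after sham. IRI arrays were all lower, replicate 2 the most, and the difference was -0.82 ± 0.16 (adjusted p = 8.29e-05, limma).

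The promoter windows of the 3 genes that fell are shown from the same RefSeq table and build: Itga8 at chr2:12301895-12302194 on the minus strand, Rgs5 at chr1:169655251-169655550 and Cspg4 at chr9:56864854-56865153, both on the plus strand. Capitals in Cspg4 mark 2 GC boxes (GGGCGG, here on the reverse strand), 120 and 85 bases before the gene start. GC boxes occurred in 35.7% of all windows, and none of these 3 windows held a CArG-like element.
Itga8: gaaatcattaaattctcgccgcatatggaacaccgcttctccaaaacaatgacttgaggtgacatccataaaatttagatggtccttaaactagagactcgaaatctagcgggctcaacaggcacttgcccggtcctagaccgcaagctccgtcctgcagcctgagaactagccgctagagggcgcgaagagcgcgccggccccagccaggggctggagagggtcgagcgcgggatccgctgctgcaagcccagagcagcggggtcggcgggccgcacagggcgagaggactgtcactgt
Rgs5: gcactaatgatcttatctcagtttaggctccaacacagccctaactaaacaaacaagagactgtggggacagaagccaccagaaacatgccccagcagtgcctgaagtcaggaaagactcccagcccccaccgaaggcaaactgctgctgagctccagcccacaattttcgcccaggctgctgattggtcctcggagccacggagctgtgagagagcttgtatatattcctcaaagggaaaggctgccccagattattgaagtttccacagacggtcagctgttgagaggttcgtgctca
Cspg4: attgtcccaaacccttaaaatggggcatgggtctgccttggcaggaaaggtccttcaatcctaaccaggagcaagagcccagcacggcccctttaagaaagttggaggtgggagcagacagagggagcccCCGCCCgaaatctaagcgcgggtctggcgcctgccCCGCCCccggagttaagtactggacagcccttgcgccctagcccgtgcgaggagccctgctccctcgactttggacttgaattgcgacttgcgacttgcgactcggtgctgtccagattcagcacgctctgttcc

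In the genes without a call the arrays overlapped. Pdgfrb read 12.01, 12.05 and 12.28 after IRI, against 11.78, 12.03 and 11.87 after sham (0.22 ± 0.29, adjusted p = 0.571, limma). Pdgfra (-0.01 ± 0.24), Des (-0.14 ± 0.32) and Penk (0.09 ± 0.24) overlapped as well (adjusted p = 0.973, 0.758 and 0.787, limma). Des read 11.52, 11.11 and 10.81 after IRI, against 11.25, 11.45 and 11.16 after sham. Penk read 10.39, 10.83 and 11.85 after IRI, against 10.91, 11.02 and 10.87 after sham, so that its sham arrays lay inside the spread of the IRI arrays.

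Other gene groups moved in the same arrays. All 6 neutrophil genes rose, led by Retnlg (3.63), S100a9 (2.98) and Cxcr2 (2.63), and their summed intensity lay between 11.46 and 11.75 after IRI, against 8.92 to 9.17 after sham (log2). Of 11 proximal tubule genes, 10 fell, led by Slc5a12 (-2.41), Aqp1 (-2.00) and Cubn (-1.87), and the sum lay between 14.80 and 14.95 after IRI, against 15.77 to 15.90 after sham. Of 11 macrophage, monocyte and dendritic genes, 1 rose and 7 fell, with sums of 11.92 to 12.81 after IRI, against 12.97 to 13.26 after sham. None of 7 adipocyte genes was called by limma (2 at an unadjusted p under 0.05), with sums of 11.29 to 12.28 after IRI, against 11.24 to 13.71 after sham. Their part in the changes of the 10 genes was not tested.

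Genes related to the 10 moved in both directions, as did all genes tested, of which 19.3% rose and 20.0% fell. Of 20 other pericyte and mural genes tested, 3 rose and 10 fell, with a median of -0.32 against 0.05 over all genes; Aspn (asporin, a matrix proteoglycan) fell by 2.11, Ndufa4l2, a mitochondrial protein, by 2.00, and Mcam, an adhesion molecule, rose by 1.71. Of 17 contractile genes 6 rose, led by Pdlim7 (1.67) and Tpm2 (1.06, a tropomyosin), and 4 fell, led by Cnn1 (-0.95, calponin). Of 19 fibroblast genes 5 rose and 7 fell; the matrix protein gene Tnc rose by 3.11, whereas the transcription factor gene Tcf21 fell by 1.49 and the proteoglycan gene Lum by 1.29.

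Of 7 tested genes of the mesangial and juxtaglomerular list, 1 rose, Tbx3 by 0.79, and 4 fell, led by Sfrp2 (-0.77) and Gata3 (-0.71). Ren1, Akr1b7, Agtr1b and Serpine2 of that list were not measured, so these counts give no result for renin-producing cells. Among the PDGF ligands, Pdgfa rose by 0.94 (adjusted p = 1.71e-08) and Pdgfb by 0.75 (adjusted p = 0.004), Pdgfd fell by 0.67 (adjusted p = 0.0241), and Pdgfc differed by -0.43 (adjusted p = 0.0702, limma). Rgs1 and Rgs16, relatives of Rgs5, rose by 2.39 and 1.92, and Rgs4 fell by 0.61. Itgb1, which pairs with Itga8, rose by 0.61. Of 5 opioid receptor and peptide genes tested, 0 were called by limma, also at an unadjusted p under 0.05.

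**Figure D3:**
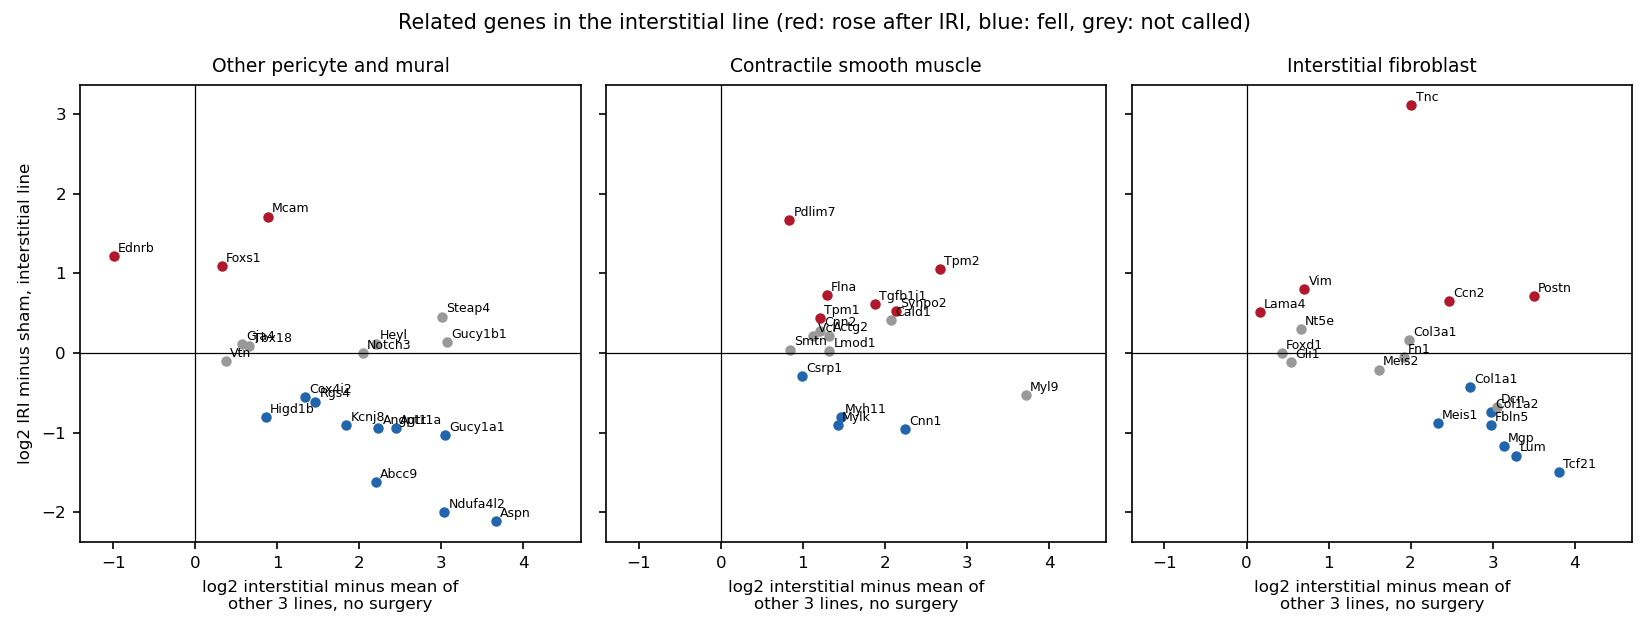
Related genes of 3 lists in the interstitial line: log2 difference from the mean of the other 3 lines without surgery (horizontal axis) and log2 IRI minus sham at 24 h (vertical axis), 1 labelled point per gene, red where it rose, blue where it fell and grey where it was not called. Aspn and Ndufa4l2, both above the other lines by 3 or more, lie lowest in the first panel.

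The same genes were followed after IRI in the other lines, which asks whether the response was shared. Of the 10 genes, 2 were called in the nephron line (28.6% of all genes), 3 in the endothelial line (43.2%), 4 in the myeloid line (27.9%) and 6 in total RNA (31.0%). All called changes of Tagln and Pi15 were upward and all of Itga8 downward.

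Tagln was higher after IRI in all 4 Cre lines. In the nephron line it read 8.80, 8.79 and 8.96 after IRI, against 8.08, 7.87 and 8.03 after sham (0.86 ± 0.18, adjusted p = 0.000373, limma). In the endothelial line it read 8.78, 8.72 and 9.17 after IRI, against 7.11, 7.29 and 7.47 after sham (1.60 ± 0.18, adjusted p = 8.45e-09, limma). In the myeloid line it read 8.74, 9.22 and 8.84 after IRI, against 7.91, 7.78 and 7.64 after sham (1.16 ± 0.18, adjusted p = 5.69e-06, limma). In none of these did the groups overlap, and the Tagln response of the interstitial line was not called as different from the mean of the others (0.10 ± 0.21, adjusted p = 0.785, limma). After IRI, the nephron, endothelial and myeloid means of Tagln were 8.85, 8.89 and 8.93. The backgrounds after IRI lay higher, at 10.04 (wild-type) and 9.69 (L10a). These lines were not tested against the backgrounds.

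Pi15 in the myeloid line read 7.90, 7.90 and 7.84 after IRI, against 5.49, 5.61 and 5.58 after sham (2.32 ± 0.31, adjusted p = 4.84e-07, limma). In the endothelial line it read 6.40, 6.21 and 6.50 after IRI, against 5.39, 5.48 and 5.59 after sham (0.89 ± 0.31, adjusted p = 0.0222, limma). In both lines all IRI arrays were higher, but the endothelial call was lost without IRI replicate 1 or 3 or sham replicate 1 or 2, with adjusted p between 0.0514 and 0.0681. In the nephron line the arrays did not overlap either, but the difference of 0.75 ± 0.31 was not called (adjusted p = 0.0718, limma). After IRI, the myeloid, endothelial and nephron means of Pi15 were 7.88, 6.37 and 6.24. The wild-type background after IRI lay above all of them, at 9.24. The L10a background, at 7.35, lay below the myeloid mean and above the others. These differences were not tested.

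Itga8 in the endothelial line read 8.22, 8.13 and 8.44 after IRI, against 9.40, 9.47 and 9.04 after sham (-1.04 ± 0.17, adjusted p = 5.29e-06, limma). In the myeloid line it read 8.05, 7.67 and 7.69 after IRI, against 9.20, 9.18 and 8.88 after sham (-1.28 ± 0.17, adjusted p = 2.78e-07, limma). Neither pair of groups overlapped. After IRI, the endothelial and myeloid means of Itga8 were 8.26 and 7.80, against 8.20 in the wild-type and 7.38 in the L10a background. After sham they were 9.30 and 9.08, against 10.25 and 7.39. These differences from the backgrounds were not tested. Rgs5 fell in the myeloid line by 0.61 (adjusted p = 0.00323, limma), with means of 7.44 after IRI and 8.05 after sham. The Rgs5 means of the backgrounds were 8.65 and 8.02 (wild-type) and 8.99 and 9.26 (L10a), again after IRI and sham. Pdgfra was higher in the nephron line, at 7.65, 7.93 and 8.26 after IRI, against 6.86, 7.14 and 7.28 after sham, by 0.85 ± 0.24 (adjusted p = 0.00582, limma). Its nephron means, 7.94 after IRI and 7.09 after sham, lay below those of both backgrounds. These were 10.83 and 11.05 (wild-type) and 8.52 and 7.96 (L10a). Neither the Rgs5 nor the Pdgfra levels of these lines were tested against the backgrounds.

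Markers of other cell types moved in these lines too. Of all genes, 28.6% (nephron), 43.2% (endothelial) and 27.9% (myeloid) were called in either direction. Counts near these shares are not particular to the markers. All 6 neutrophil genes rose in the endothelial line, with sums of 13.64 to 13.78 after IRI, against 10.56 to 11.70 after sham, and in the myeloid line, with sums of 14.22 to 14.60 after IRI, against 11.39 to 11.86 after sham (log2). In the nephron line 2 of the 6 rose. Of 8 collecting duct genes 7 fell in the myeloid line, with sums of 11.86 to 12.01 after IRI, against 13.13 to 13.33 after sham, and 2 fell in the endothelial and 4 in the nephron line. Of 11 proximal tubule genes 9 fell in the myeloid line, with sums of 13.57 to 13.64 after IRI, against 14.25 to 15.08 after sham, and 4 fell in the endothelial and 5 in the nephron line. Of 11 macrophage, monocyte and dendritic genes 6 fell in the endothelial line. Their part in the changes of the 10 genes was not tested.

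The nephron counts changed with the fit: 7 of the 10 genes were called without the total RNA arrays, and 8 when the 2 groups were compared alone. The share of all genes called in those fits is not given here, so these counts cannot be read as particular to the 10 genes.

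**Figure D4:**
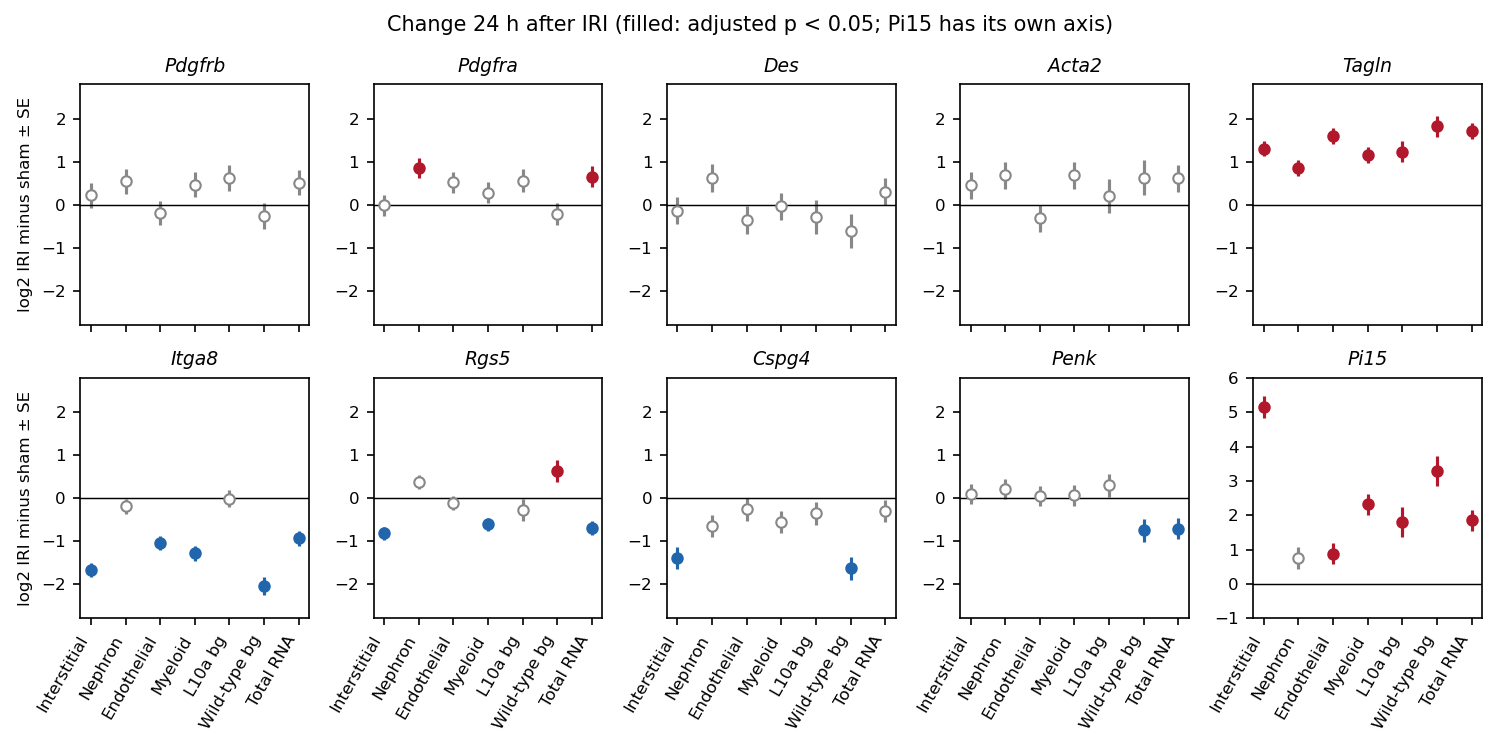
Log2 IRI minus sham at 24 h with SE (vertical axis) in each line, background and total RNA (horizontal axis), 1 panel per gene, filled points being called (red higher, blue lower) and open points not. Pi15 reaches 5.16 in the interstitial line and has its own axis.

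A test of the difference between responses called 4 of the 10 genes, beside 15.9% of all genes. Pi15 rose more in the interstitial line than in the mean of the others, by 3.84 ± 0.36 (adjusted p = 2.78e-09, limma). Itga8 fell more than that mean (-0.83 ± 0.20, adjusted p = 0.00282), as did Cspg4 (-0.89 ± 0.30, adjusted p = 0.0364) and Rgs5 (-0.71 ± 0.18, adjusted p = 0.00669, limma). The Itga8 changes were -1.67 (interstitial), -1.28 (myeloid), -1.04 (endothelial) and -0.19 (nephron). Those of Rgs5 were -0.82, -0.61, -0.11 and 0.38, with the lines in that order. Nephron sham means of Itga8 (6.36) and Rgs5 (6.32) lay under the median intensity of their arrays. The sizes of both response differences are therefore uncertain. The Cspg4 value rests on sham as the reference. Interstitial Cspg4 means were 9.14 after IRI, 10.52 after sham and 9.46 without surgery. In the same order they were 8.42, 9.07 and 8.74 (nephron), 8.10, 8.37 and 8.63 (endothelial) and 7.52, 8.07 and 9.19 (myeloid). The response difference against no surgery was not tested. Without interstitial IRI replicate 2 the values of Rgs5 and Cspg4 were -0.49 and -0.92 and neither was called (adjusted p = 0.0627 and 0.0589). Cspg4 also lost its call without interstitial IRI replicate 3, interstitial sham replicate 2 or 3, nephron IRI replicate 2, nephron sham replicate 1, endothelial sham replicate 1 or myeloid sham replicate 1, with adjusted p between 0.0514 and 0.137. A joint test of the 4 responses called Pi15, Itga8 and Rgs5, beside 46.6% of all genes.

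In whole-kidney total RNA, Tagln (1.71 ± 0.18), Pi15 (1.85 ± 0.31) and Pdgfra (0.66 ± 0.24) were higher after IRI, and Itga8 (-0.94 ± 0.17), Rgs5 (-0.69 ± 0.16) and Penk (-0.71 ± 0.24) were lower (adjusted p = 8.4e-09, 2.53e-05, 0.0329, 6e-05, 0.00113 and 0.0214, limma). Pi15 read 5.35, 7.59 and 5.45 after IRI, against 4.14, 4.27 and 4.43 after sham, and replicate 2 stood far above the other IRI arrays. Without it the difference was 1.12 (adjusted p = 0.000122, limma). Its sham readings lay below log2 5, the level used to filter genes, so the size of this difference is uncertain. Penk read 5.29, 5.18 and 5.58 after IRI, under the median intensity of those arrays. Itga8 was also low after IRI, at 6.04, 5.70 and 5.58, so the sizes of both falls are uncertain too. The Pdgfra call was lost without IRI replicate 1 or 2 or sham replicate 1 or 2 (adjusted p between 0.0655 and 0.128), and that of Penk without IRI replicate 2 or sham replicate 3 (adjusted p = 0.0595 and 0.147). Acta2 read 10.71, 10.73 and 8.66 after IRI, against 9.28, 9.31 and 9.67 after sham. The low value was that of IRI replicate 3. Without it Pdgfrb (1.09), Des (1.06) and Acta2 were called as higher (adjusted p = 0.000432, 0.000106 and 3.31e-05, limma), which made 9 of 10. Over all genes 5321 were then called, 61.6% of them higher, against 5958 and 50.6% in the main fit. Standard errors here come from a spread shared by all groups of the fit, whereas Pi15 alone had an SD of 1.26 after IRI (n = 3). Compared alone, the total RNA groups gave 2 calls, Tagln and Itga8. Pdgfra, Rgs5, Penk and Pi15 lost theirs, and over all genes 689 were called, against 5958. With the replicate block 0 of the 10 were called.

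Both backgrounds also changed after IRI. In the wild-type background 6 of the 10 genes were called, beside 37.9% of all genes. Pi15 read 10.42, 7.36, 9.45 and 9.71 after IRI, against 5.93 and 5.95 after sham (3.30 ± 0.44, adjusted p = 4.88e-08, limma). Itga8 read 7.84, 8.62, 8.65 and 7.69 after IRI, against 10.31 and 10.19 after sham (-2.05 ± 0.20, adjusted p = 5.44e-11, limma). No array overlapped for either gene. Tagln differed by 1.83 ± 0.24 and Cspg4 by -1.63 ± 0.27 (adjusted p = 5.29e-08 and 3.5e-06, limma).

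The Rgs5 and Penk calls there rested on single arrays. Rgs5 read 9.87, 8.25, 8.63 and 7.85 after IRI, against 8.06 and 7.98 after sham (0.63 ± 0.25, adjusted p = 0.0468, limma), and without IRI replicate 1 the difference was 0.22 (adjusted p = 0.349). It was not called without IRI replicate 3 or either sham array either (adjusted p between 0.0656 and 0.211). Penk differed by -0.75 ± 0.26 (adjusted p = 0.02, limma) and was not called without IRI replicate 2 or 3 or either sham array, with adjusted p between 0.052 and 0.109. IRI replicate 1 was the highest of the 4 for every gene but Itga8, for example Des (10.73), Acta2 (12.26) and Tagln (11.03), and its summed adipocyte intensity was 13.70, against 9.85 to 10.28 on the other 3; its part in these values was not tested. Without it, Des was called as lower (-1.09, adjusted p = 0.00998).

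In the L10a background 2 of 10 were called, Tagln (1.23 ± 0.24) and Pi15 (1.81 ± 0.44), beside 38.4% of all genes (adjusted p = 6.62e-05 and 0.000886, limma). After IRI, 6 of 10 were lower in the L10a background than in the wild-type one, beside 20.4% of all genes. The differences were -1.88 for Pdgfrb, -2.31 for Pdgfra, -1.37 for Des, -0.82 for Itga8, -1.39 for Cspg4 and -1.88 for Pi15.

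The nephron line was also sampled at 4 h. Tagln alone was called there, at 8.63, 8.67 and 8.39 after 4 h of reperfusion, against 8.08, 7.87 and 8.03 after sham (0.57 ± 0.18, adjusted p = 0.0256, limma; 18.1% of all genes called), and it lost the call without any of 4 single arrays. Between 4 h and 24 h, 2 of 10 differed (27.7% of all genes): Pdgfra was higher at 24 h by 0.62 ± 0.24 (adjusted p = 0.0484) and Itga8 differed by -0.54 ± 0.17 (adjusted p = 0.0146, limma). Pdgfra lost that call without 24 h replicate 2 or 3 or 4 h replicate 1 or 3, and Itga8 without 24 h replicate 2 or 4 h replicate 2 (adjusted p between 0.0556 and 0.231).

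Sham surgery left the 10 genes uncalled in the nephron line (1.62% of all genes called) and the endothelial line (0.738%), also at an unadjusted p under 0.05. In the myeloid line 1 was called (1.68% of all genes), Cspg4, at 7.57, 8.56 and 8.09 after sham, against 9.11, 8.94 and 9.53 without surgery (-1.12 ± 0.26, adjusted p = 0.016, limma). It lost that call without sham replicate 1 or 3 or no surgery replicate 1 or 3, with adjusted p between 0.0514 and 0.24. The difference between the sham changes of both lines was not tested.

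Across the 17 TRAP group means, the order of levels differed between genes. For Pdgfrb and Pdgfra the 3 interstitial groups and the 2 wild-type background groups formed the top 5, each overlapping its neighbour, and the myeloid line without surgery came next with no overlap. For Acta2 the 3 interstitial groups came first, and the lowest of them overlapped the wild-type background after IRI, as it did for Tagln. For Rgs5 they were the top 3, with the IRI group apart from both its neighbours. For Des and Penk the 3 interstitial groups were the top 3, overlapping one another and none of the rest. For Itga8 the interstitial line after IRI came eighth, at 8.95 ± 0.49, against 10.62 ± 0.10 after sham (SD, n = 3 each). Its arrays overlapped those of the myeloid sham group just above it, whereas the 3 highest groups, interstitial without surgery, interstitial sham and wild-type sham, overlapped no neighbour. For Cspg4 the wild-type background after sham was the highest of all, at 11.21 ± 0.15 (SD, n = 2). For Pi15 the interstitial line after IRI came first, at 11.75 ± 0.46 (SD, n = 3), and overlapped no other group. The wild-type background after IRI was the second, at 9.24 ± 1.32 (SD, n = 4), and overlapped the myeloid line after IRI, at 7.88 ± 0.04 (SD, n = 3).

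The profile most like the mean of the 10 over those 17 groups was that of Ddr2, a collagen receptor kinase (r = 0.99, rho = 0.94), followed by Pde3a, Pakap and Notch3 (r = 0.99, 0.98 and 0.98). Des was most like Notch3 (r = 0.99), Acta2 like S1pr3 (r = 0.97), Tagln like Vgll3 (r = 0.97), Rgs5 like Myl9 (r = 0.96), Itga8 like Col14a1 (r = 0.95), Cspg4 like Pcsk5 (r = 0.93), Penk like Ctsk (r = 0.99) and Pi15 like Mir100hg (r = 0.97). Pi15 and Cspg4 shared the least of any pair among the 10 (r = 0.08), and Itga8 and Pi15 little more (r = 0.12). These are descriptions over group means that share arrays and normalization.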

How the data were processed

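Arrays were Affymetrix Mouse Gene 1.0 ST. The deposited values are linear intensities, summarized by the authors with RMA in Affymetrix Expression Console 1.3.1, per the submitters' processing notes. The design assumed log2 values, so log2 of the deposited intensity was taken. Of 35556 probe sets, 21789 with exactly 1 symbol were kept, the highest-mean one per gene (19938 genes). Genes with log2 above 5 in at least 3 arrays were tested with moderated linear models (limma 3.58.1 under R 4.3.3), 1 coefficient per group: 45 arrays (19244 genes) without the backgrounds, and all 57 (19302 genes) for comparisons with them. Adjusted p-values use the Benjamini-Hochberg method across every gene tested and measure only the spread between these arrays. The fit was tested on simulated data. Errors are limma standard errors unless given as SD. The members and lists were chosen with earlier results of these data known. Of 203 list entries 185 were measured. The text names the members, the PDGF ligands, up to 3 called genes per list with the largest change, and the most alike profiles (top 3 per member and top 10 for their mean), some of which are left out; the plot of related genes labels whole lists. Promoters are RefSeq windows of GRCm38.p6; those of Pdgfrb, Tagln, Penk and Pi15 are not shown. Alternatives covered normalization, filters, probe set averaging, array weights, eBayes trend, total RNA arrays, groups compared alone, a replicate block and leaving out each array. Figures used Python 3.11.15 and matplotlib 3.10.9.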

Additional observations from a re-analysis of the deposited data

Results flagged for a closer look

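For 4 genes the interstitial response differed from the mean of the other 3 lines, by a test of that difference. The joint test of the 4 responses called 3 of them, Pi15, Itga8 and Rgs5, and not Cspg4. The interstitial IRI response minus the mean of the other 3 lines was 3.84 for Pi15, -0.83 for Itga8, -0.71 for Rgs5 and -0.89 for Cspg4 on the log2 scale. All 4 values were called at an adjusted p under 0.05 with limma in the main fit. Of 33 alternatives, 8 changed the call of Cspg4 and 1 that of Rgs5. The Cspg4 value also rests on sham as the reference. Nephron sham means of Itga8 and Rgs5 were low, at 6.36 and 6.32 (log2), so the sizes of these response differences are uncertain. The untagged wild-type background was not part of that test. It changed after IRI by 3.30 for Pi15, -2.05 for Itga8, 0.63 for Rgs5 and -1.63 for Cspg4.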

How the results depend on the processing

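Of the single-gene values under all alternatives, 3184 kept their direction and their side of the threshold, 97 gained a call and 88 lost one, and 72 of 96 called values kept their call throughout. Another 71 values, in 32 comparisons of a single gene, changed sign; 0 of these were called under either setting. With quantile normalization the turned values were Penk -0.039 (IRI in the endothelial line), Des 0.063 (IRI in the myeloid line), Penk -0.014 (sham in the myeloid line) and Acta2 -0.036 (the response difference). With array weights the turned values were Penk -0.10 (IRI in the interstitial line), Des 0.020 (sham in the endothelial line), Penk -0.19 (sham in the myeloid line) and Penk 0.068 (the L10a background against the wild-type one after IRI). With the replicate block the turned values were Acta2 -0.11 (IRI in the L10a background) and Itga8 0.016 (IRI in the L10a background). With no surgery in place of sham the turned values were Penk -0.45 (IRI in the interstitial line), Penk -0.024 (IRI in the endothelial line), Pdgfrb -0.42 (IRI in the myeloid line) and Pdgfra -0.48 (IRI in the myeloid line). Leaving out 1 array gave, for IRI in the interstitial line, Des -0.32 to 0.030, Pdgfra -0.18 to 0.14 and Penk -0.32 to 0.41. For the response difference it gave Acta2 -0.13 to 0.30, Pdgfrb -0.17 to 0.031 and Penk -0.43 to 0.30. For IRI in the L10a background it gave Acta2 -0.15 to 0.56 and Itga8 -0.16 to 0.14. For the L10a background against the wild-type one after IRI it gave Acta2 -0.66 to 0.094 and Penk -0.25 to 0.086. For sham in the endothelial line it gave Acta2 -0.16 to 0.23, Cspg4 -0.45 to 0.027, Des -0.22 to 0.14, Itga8 -0.087 to 0.13, Pdgfra -0.34 to 0.091, Pdgfrb -0.50 to 0.11, Rgs5 -0.18 to 0.083 and Tagln -0.064 to 0.11. For sham in the nephron line it gave Acta2 -0.051 to 0.24, Itga8 -0.075 to 0.028 and Pdgfra -0.073 to 0.39. For IRI in the myeloid line it gave Des -0.20 to 0.12 and Penk -0.057 to 0.25. For IRI in whole-kidney total RNA it gave Des -0.22 to 1.06. For IRI in the wild-type background it gave Pdgfra -0.43 to 0.023. For the interstitial line against the wild-type background after sham it gave Pdgfrb -0.017 to 0.13. For IRI in the endothelial line it gave Pdgfrb -0.44 to 0.17 and Penk -0.0028 to 0.10. For IRI in the nephron line it gave Penk -0.028 to 0.37. For sham in the myeloid line it gave Penk -0.18 to 0.18. Counts of called members moved by over 1.5 times in 48 checks and held in 329; the cause was not tested. In the nephron line at 24 h (2 called) the count was 4 with quantile normalization, 8 with array weights, 7 without total RNA arrays and 8 with the groups compared alone. Array weights gave 5 in the endothelial line (3) and 7 in the myeloid line (4). In total RNA (6) the groups alone gave 2, and at 4 h (1) they gave 3. Between 24 h and 4 h (2) the count was 1 with no filter and 4 with array weights. For sham in the interstitial line (2) it was 4 without total RNA arrays and 1 alone. For sham in the myeloid line (1) it was 2 with quantile normalization or the stricter filter, 7 with array weights, 3 without total RNA arrays and 0 alone. The joint test (3) gave 5, 8, 7 and 7 with quantile normalization, array weights, no total RNA arrays and the groups alone. In the L10a background (2) it gave 4, 4 and 5 with quantile normalization, array weights and the groups alone. Replicate numbers were not used to pair the arrays in the main fit, since no comparison had every checked pair's correlation above 0.1. This rule cannot exclude pairing, and the highest single pair reached 0.51 (sham against no surgery in the endothelial line). With the replicate block the counts were 8 (nephron at 24 h), 0 (total RNA), 2 (4 h), 1 (interstitial sham), 0 (myeloid sham), 8 (joint test) and 4 (L10a background). For the interstitial line against the wild-type background after IRI, the block gave adjusted p = 0.141 for Itga8 and 0.0989 for Rgs5 (limma). Leaving out 1 array gave 2 to 4 in the nephron line, 0 to 1 at 4 h, 0 to 2 between 24 h and 4 h, 1 to 2 for interstitial sham, 0 to 4 for myeloid sham, 2 to 4 for the response difference and 4 to 9 in total RNA. Over all genes, total RNA calls numbered 5958, against 689 with the groups alone and 47 with the block; sham calls in the interstitial line numbered 1985, against 350 and 698. Sham calls numbered 311 in the nephron line, 142 in the endothelial line and 323 in the myeloid line, against 2355, 380 and 3076 with array weights. Response difference calls numbered 3064, against 6024 with array weights. Calls of 3492 at 4 h and 5335 between 24 h and 4 h became 6369 and 8033 with array weights, and 5378 in the myeloid line became 9669. Joint test calls numbered 8975, against 13833 with array weights. Without total RNA arrays, sham calls numbered 3562 in the interstitial line and 681 in the myeloid line. With the groups alone, calls numbered 5557 at 4 h and 26 for sham in the myeloid line. No surgery in place of sham, added after seeing the data, left 4 of 5 calls in the interstitial line. Groups of 2 to 4 arrays limit precision throughout.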
